A study of Mus musculus with 4 samples.

Results

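Entire sections of testis from H3t-knockout mice were compared with entire sections of wild-type testis. H3t is a histone H3 variant of the testis, encoded in the mouse by H3f4. The comparison takes 6 of the 12 libraries in the series, 3 of each genotype, chosen by their labels alone: wild type or H3t knockout, each with the whole 10 µm section exposed to ultraviolet light. Exposure uncages the DNA ends used in photo-isolation chemistry, so that only RNA inside the lit area is read, and here the lit area was the whole slice. No other allele, agent or treatment is named for these groups. The wild-type titles call the mice young, and no age was found for the knockout mice. It is not stated whether the 3 libraries of a genotype came from different animals, so p-values measure the spread between these libraries, which may be technical. The libraries of each genotype share 1 library name in the deposited barcode sheet, so a difference between library pools and a difference between genotypes cannot be told apart.

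Sperm are made in the seminiferous tubules in a fixed order. Spermatogonia divide by mitosis, spermatocytes pass through meiosis, round spermatids build the acrosome and the flagellum, and elongating spermatids exchange histones for transition proteins and then protamines. Sertoli cells hold the germ cells within the tubule, peritubular myoid cells surround it, and Leydig cells, macrophages, vessels and stroma lie between tubules. A whole section reads all of them together, so fewer cells of a type and less RNA per cell cannot be told apart in any value below.

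Wild-type libraries held 566527, 522652 and 247539 counts and knockout libraries 475764, 392164 and 321771. At least 1 count was found for 16174 to 19102 genes per wild-type library and for 15198 to 15615 per knockout library. Mitochondrial transcripts took 3.06% to 6.10% of counts over the 6 libraries, with both genotypes overlapping. Levels are given as CPM, counts scaled to a common library total, and 3 counts, the limit that a count of 0 allows, came to between 5.30 and 12.1 CPM. H3f4 itself had 1 count in wild-type replicate 1 and 0 in the other 5 libraries, so it could not check the labels. It lies at chromosome 11, 58961812 to 58962222, on the plus strand of GRCm38, where it is annotated as an unprocessed pseudogene.

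Transcripts of pachytene and later spermatocytes and of spermatids were nearly lost from knockout sections. Meiotic prophase genes fell less far, to 0.142 times their mean share in wild type. Genes of Leydig cells, of Sertoli cells and of macrophages filled a larger share. Genes called lower held 49.4%, 59.2% and 51.7% of counts in wild-type libraries and 10.9%, 10.6% and 10.9% in knockouts. Genes called higher held 14%, 7.88% and 11.1% in wild type and 49.2%, 46.4% and 47.3% in knockouts. Both sets were picked by their calls in the same 6 libraries. The direction of their shares was thus fixed in advance, and only their size is described. The table lists 28595 genes, and 7705 of them had at least 10 counts in at least 3 of the 6 libraries and were tested. Of these, 2081 were higher (27.0%) and 2782 lower (36.1%) at an adjusted p under 0.05 in edgeR's quasi-likelihood test. Against a 2-fold change, 999 were higher (13.0%) and 2086 lower (27.1%). The losses were the larger changes: 898 genes fell by more than 5 on the log2 scale and 8 rose by as much, and the median change was -2.86 among genes called lower and 1.58 among genes called higher. Libraries of the genotypes did not overlap for 2052 of the genes called higher and 2483 of those called lower. These counts were taken among called genes only and add no support to the calls. Uncalled genes could lack overlap as well, among them Eif1ax and Rhox5 of the X chromosome. The share without overlap over all genes tested is not given here, so the counts have no background to be read against. The filter on these 6 libraries admitted 2666 genes that a filter over all 12 libraries of the series leaves out, and 553 of them were higher and 763 lower.

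Log2 changes depend on the scaling, which was TMM, the trimmed mean of M values. The TMM factors, at 0.968, 0.792 and 0.857 in wild type, reached 1.14, 1.262 and 1.058 for the knockout libraries, so a log2 change is smaller than the ratio of 2 CPM values would give for a rise. Of all calls, the share that was higher came to 42.8% under TMM, 53.7% without scaling factors, 55.8% with upper-quartile factors and 7.05% when libraries were scaled to the Sertoli list. The median change of all genes tested was -0.14, 0.26, 0.34 and -1.45 in that order. Of the 138 meiotic and spermatid genes tested, 136 were lower under TMM, and 134 to 136 when 1 library was left out. Their median change was -6.11, -5.70, -5.63 and -7.42 in the same order of scalings. Rises of somatic genes are stated relative to the genes TMM treats as stable.

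**Figure D1:**
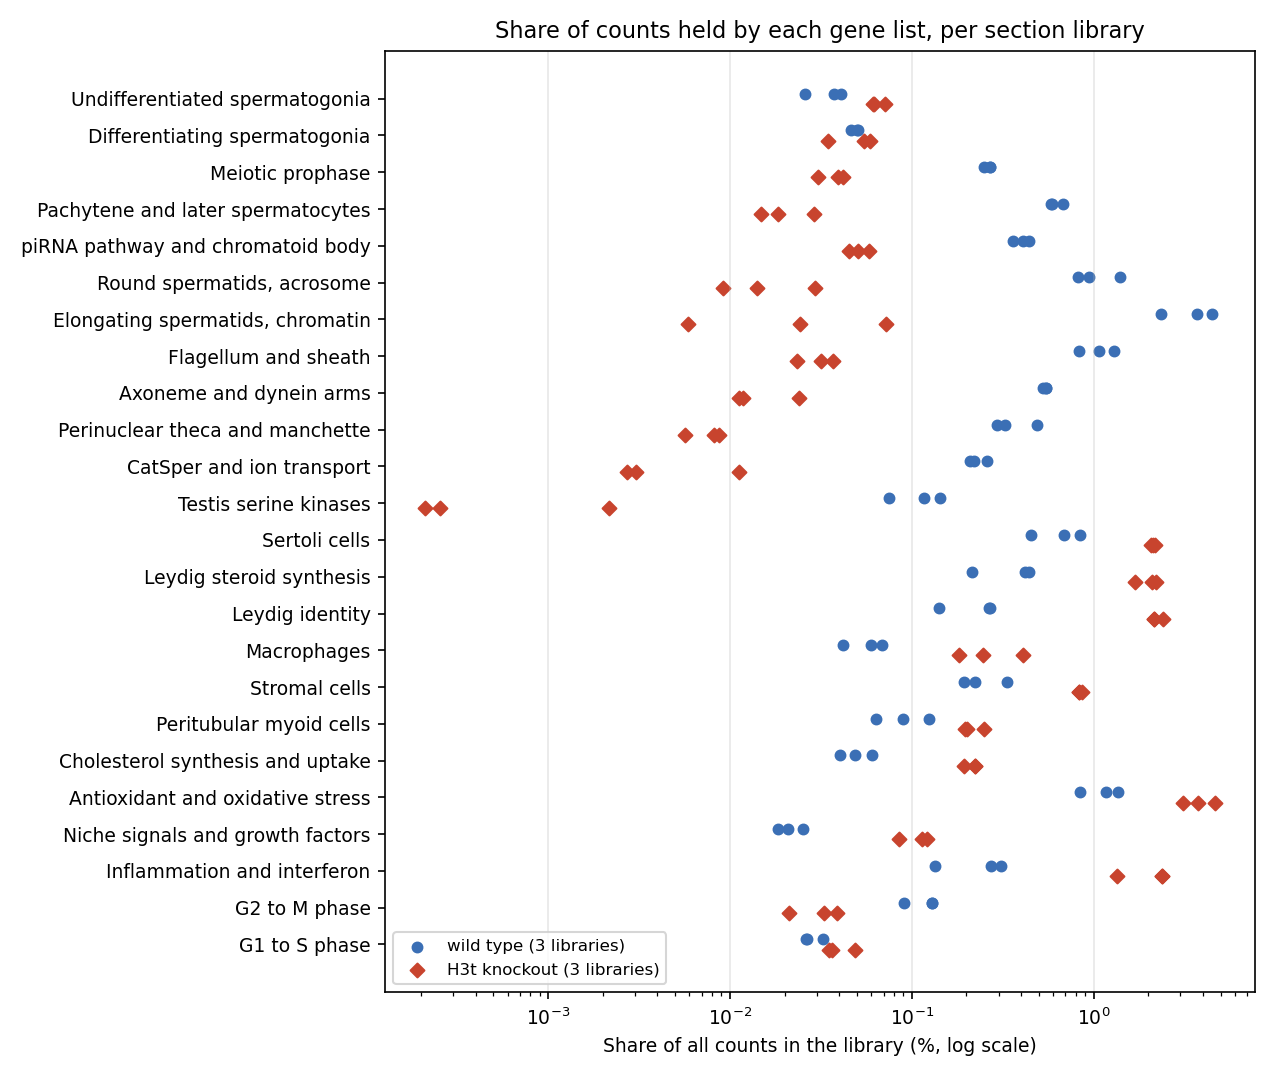
Share of all counts in a library (percent, log scale) held by each gene list, with 3 wild-type libraries as circles and 3 H3t-knockout libraries as diamonds. Lists of meiotic and spermatid genes sit lower in knockouts, those of Leydig, Sertoli, macrophage and stromal cells sit higher, undifferentiated spermatogonia sit higher by a smaller step and differentiating spermatogonia overlap.

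Gene lists were set in the order of germ cell development, and differences between lists were not tested. Among undifferentiated spermatogonia genes the median log2 change was 0.57 (5 tested, 2 higher and 1 lower), and among differentiating spermatogonia genes -0.31 (6 tested, 2 higher and 2 lower). It was -3.74 for meiotic prophase genes (11 tested, 10 lower), -5.17 for genes of pachytene and later spermatocytes (10 of 10 lower), -6.40 for acrosome genes of round spermatids (21 of 21 lower) and -7.02 for chromatin compaction genes of elongating spermatids (10 of 10 lower). Over all genes tested the median was -0.14, with 36.1% lower. Scaling to the Sertoli list turned the undifferentiated median to -0.74, and upper-quartile scaling turned the differentiating one to 0.15, while the medians of the later lists stayed negative in all settings tried.

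Counting over the members tested overstates these lists, because many spermatid genes passed the filter only through wild-type libraries. The shares of counts use every member in the table instead. The 220 genes of all meiotic and spermatid lists held 6.42%, 9.97% and 8.08% of wild-type counts and 0.201%, 0.174% and 0.289% of knockout counts. Of the 82 of these genes that were not tested, 72 had a higher mean CPM in wild type, 5 in knockouts and 5 had no counts, with 2056 counts in wild type and 273 in knockouts. Among the 138 tested, 136 were lower. Ratios of mean shares by stage, knockout over wild type, were taken with every member in the table counted. The ratio was 1.88 for undifferentiated and 1.01 for differentiating spermatogonia, 0.142 for meiotic prophase and 0.0335 for pachytene and later spermatocytes. It was 0.0167 for acrosome genes and 0.00970 for chromatin compaction genes. Both spermatogonial ratios rest largely on a few genes, which did not move together, so neither shows spermatogonia kept or enriched as a stage.

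**Figure D2:**
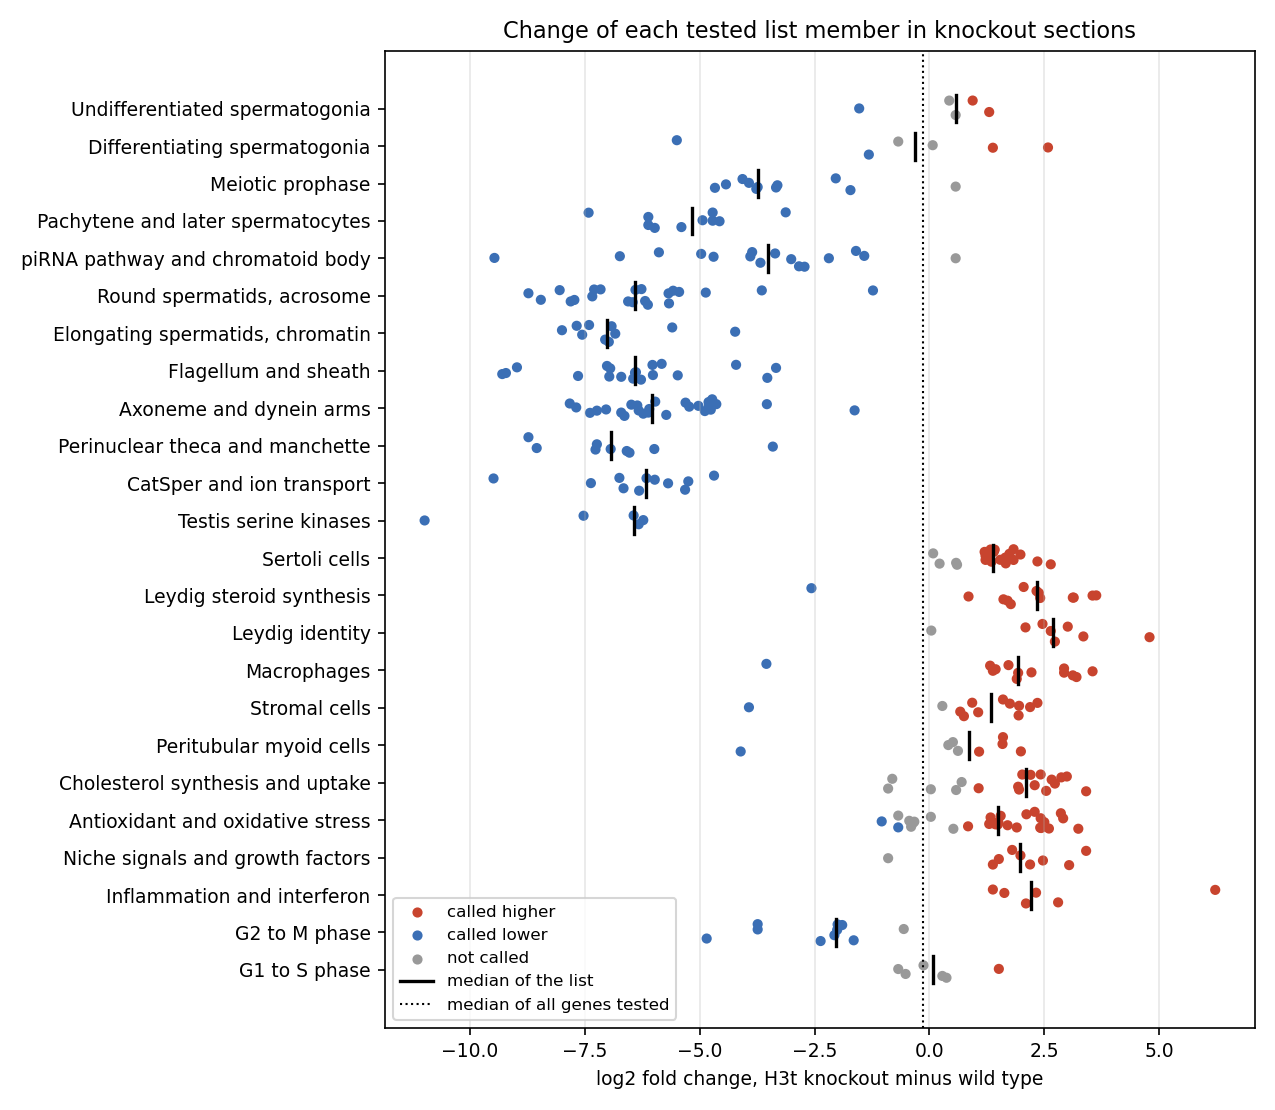
Log2 fold change (H3t knockout minus wild type, TMM scaling) of each tested list member, coloured by call, with the list median as a bar and the median of all genes tested (-0.14) as a dotted line. Medians run from 0.57 in undifferentiated spermatogonia to -7.02 in chromatin compaction genes, and the somatic lists lie to the right, apart from single members such as Aif1, Mfap5, Actg2 and Lipe, though scaling to the Sertoli list moves the undifferentiated and peritubular myoid medians below 0.

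Spermatogonial genes did not move together. Kit, the stem cell factor receptor of differentiating spermatogonia that Leydig cells also carry, read 26.5, 24.9 and 28.3 CPM in wild type and 242, 275 and 115 in knockouts. Every knockout library was higher, and Kit rose by 2.58 ± 0.36 (SE; adjusted p = 1.08e-06). Dmrtb1, a regulator of the passage from mitosis to meiosis, read 169, 260 and 194 CPM in wild type and 6.31, 5.10 and 6.22 in knockouts. Its groups were far apart, and it fell by 5.50 ± 0.45 (adjusted p = 2.22e-10). Dmrt1, its relative in spermatogonia and Sertoli cells, rose by 1.38 ± 0.39 (adjusted p = 0.00336), and Uchl1, an enzyme of undifferentiated spermatogonia, by 1.30 ± 0.30 (adjusted p = 0.000626), though Uchl1 stood at -0.01 and Dmrt1 at 0.12 with Sertoli scaling. Id4, a marker of spermatogonial stem cells, fell by 1.53 ± 0.37 (adjusted p = 0.000859). Etv5 rose by 0.94 ± 0.37 (adjusted p = 0.0283), a call that was lost without wild-type replicate 2 or 3 or knockout replicate 1, with adjusted p = 0.0862, 0.0832 and 0.0919, and the value turned to -0.30 with Sertoli scaling. The undifferentiated list as a whole held 0.0346% ± 0.00780 (SD, n = 3) of wild-type counts and 0.0649% ± 0.00544 (SD, n = 3) of knockout counts, with every knockout library above every wild-type library. The differentiating list held 0.0489% ± 0.00254 (SD, n = 3) of wild-type counts and 0.0495% ± 0.0129 (SD, n = 3) of knockout counts, and its libraries overlapped. Uchl1, with a mean of 103 CPM in wild type and 329 in knockouts, made up much of the undifferentiated rise. Etv5 was higher too, while Id4 was lower. In the differentiating list, mean CPM rose from 26.5 to 211 for Kit and fell from 208 to 5.87 for Dmrtb1. These opposite changes largely offset each other in the list share.

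Meiotic genes fell in a graded way. Stag3, a meiotic cohesin subunit, read 547, 555 and 448 CPM in wild type and 35.7, 17.8 and 24.9 in knockouts, and fell by 4.67 ± 0.37 (adjusted p = 1.20e-10). Sycp2 of the synaptonemal complex read 298, 291 and 299 CPM against 33.6, 30.6 and 21.8 and fell by 3.74 ± 0.34 (adjusted p = 8.00e-10). Knockout libraries were all lower for both genes, yet kept a countable level. Meioc, which is needed to hold germ cells in meiotic prophase, fell by 3.93 ± 0.57 (adjusted p = 1.87e-06), on 56 counts in wild type and 4 in knockouts. Syce1 and Smc1b, a further synaptonemal protein and a further meiotic cohesin, fell by 4.43 and 3.77. Ythdc2, the RNA helicase that works with Meioc, was the 1 tested member that was not called, at 0.57 ± 0.52 (adjusted p = 0.354). Of the 23 members not tested, 16 had a higher mean CPM in wild type and 4 in knockouts. Later in meiosis, Hspa2, the chaperone of pachytene spermatocytes, read 1264, 1640 and 1172 CPM against 86.2, 86.7 and 55.9 and fell by 4.57 ± 0.36 (adjusted p = 1.51e-10).

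Genes of the small RNAs that silence transposons, the piRNA pathway, spanned a wide range. Of 16 tested, 15 were lower, against 36.1% of all genes tested, and Fkbp6 was not called at 0.57 ± 0.33 (adjusted p = 0.138). Tdrd6, a chromatoid body protein of spermatids, had 860 counts in wild type and 1 in knockouts, and its fitted log2 change of -9.47 was -11.18 without knockout replicate 1. Piwil1, the piRNA-binding protein of pachytene spermatocytes and round spermatids, read 417, 274 and 440 CPM against 0, 2.55 and 12.4 and fell by 6.74 ± 0.52 (adjusted p = 1.08e-10), or by 6.06 without knockout replicate 1 and 8.33 without knockout replicate 3. Piwil2, its relative that is already present in spermatogonia, read 397, 262 and 295 CPM against 39.9, 38.2 and 43.5 and fell by 3.36 ± 0.32 (adjusted p = 2.54e-09). Ddx4, an RNA helicase of germ cells from early stages on, fell by 3.86 ± 0.36 (adjusted p = 1.72e-09) and Tdrd1 by 2.72 ± 0.34 (adjusted p = 1.43e-07). Both Piwil2 and Ddx4 thus kept a measurable level where Tdrd6 had almost none.

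Genes of mitosis and of DNA replication were counted apart. Of 10 tested genes of the G2 to M phase, which in this tissue serve mitotic and meiotic divisions, 9 were lower with a median of -2.04, against 36.1% lower over all genes tested, and Cdk1 was not called. Aurka, a spindle kinase, read 148, 186 and 178 CPM against 6.31, 7.65 and 9.32 and fell by 4.85 ± 0.42 (adjusted p = 4.87e-10). Plk1 and Ccnb2, a mitotic kinase and a cyclin, each fell by 3.74, and Top2a, a topoisomerase of dividing cells, by 2.01 ± 0.35 (adjusted p = 1.93e-05). Of 6 tested genes of the G1 to S phase, none was lower and 1 was higher, with a median of 0.08. With the replicate block Rrm1, a subunit of ribonucleotide reductase, was lower at -0.70 (adjusted p = 0.0498), from -0.68 with adjusted p = 0.0874 without it. The gene called higher was Ccnd2, a cyclin of G1, which rose by 1.51 ± 0.38 (adjusted p = 0.00143). With scaling to the Sertoli list Ccnd2 stood at 0.18 with adjusted p = 0.710 and 3 of the 6 were lower. The other 10 of the 16 were too sparse to test.

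Spermatid genes included some of the most abundant transcripts of wild-type sections. Prm1, a protamine that packs sperm DNA, read 8128, 15232 and 12111 CPM in wild type and 65.2, 7.65 and 205 in knockouts. It fell by 7.41 ± 0.75 (adjusted p = 5.66e-09), or by 8.64 without knockout replicate 3. Tnp2, a transition protein that comes before the protamines, read 560, 949 and 755 CPM against 2.10, 5.10 and 9.32 and fell by 7.56 ± 0.50 (adjusted p = 3.23e-11). Chd5, a chromatin remodeller of spermatids, read 323, 358 and 372 CPM against 2.10, 2.55 and 6.22 and fell by 6.98 ± 0.47 (adjusted p = 3.45e-11). What little remained of these transcripts was uneven: the chromatin compaction list held 0.0242%, 0.00586% and 0.0718% of counts in knockout replicates 1, 2 and 3, against 2.36% to 4.45% in wild type. H1f7, a linker histone of spermatids, had 301 counts in wild type and 1 in knockouts, a ratio of 268 (47.7 to 10616 by exact 95% counting error), and its fitted log2 change of -8.00 was -9.81 without knockout replicate 3.

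Acrosome genes changed to a like degree. Zpbp, a zona pellucida binding protein of the acrosome, read 387, 712 and 481 CPM against 2.10, 5.10 and 6.22 and fell by 7.30 ± 0.50 (adjusted p = 4.18e-11). Spesp1 of the equatorial segment fell by 7.16 ± 0.50 (adjusted p = 4.18e-11; 7.95 without knockout replicate 1). Crem, the factor that switches on many spermatid genes through cAMP response elements, fell by 3.65 ± 0.45 (adjusted p = 1.51e-07), on 134 counts in wild type and 12 in knockouts. Crem lost less than most of the list, whose quartiles were -7.34 and -5.67.

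Flagellum, axoneme and channel genes were all lower wherever they could be tested. That held for 19 of 19 genes of the dense fibres, sheath and midpiece, 26 of 26 of the axoneme, 9 of 9 of the perinuclear theca and manchette, 11 of 11 of the sperm ion channels and 5 of 5 testis serine kinases. Over all genes tested 36.1% were lower. Members that passed the filter only through wild-type libraries were bound to lean this way, and 3 flagellum genes and 2 kinases had no counts in knockouts. Odf1, of the outer dense fibres, read 228, 419 and 351 CPM against 8.41, 5.10 and 9.32 and fell by 5.83 ± 0.46 (adjusted p = 1.18e-10). Cfap206, an axonemal protein, read 300, 450 and 368 CPM against 4.20, 5.10 and 9.32 and fell by 6.33 ± 0.45 (adjusted p = 5.18e-11). Catsperd, an auxiliary subunit of the sperm calcium channel, had 245 counts in wild type and none in knockouts, which made it at least 72.7-fold lower with the knockout group set to 3 counts in total. Dnah2, a dynein heavy chain, fell least among the axonemal genes, at -1.63. Untested members leaned the same way, with 14 of 15 axonemal genes at a higher mean CPM in wild type and 1 without counts.

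**Figure D3:**
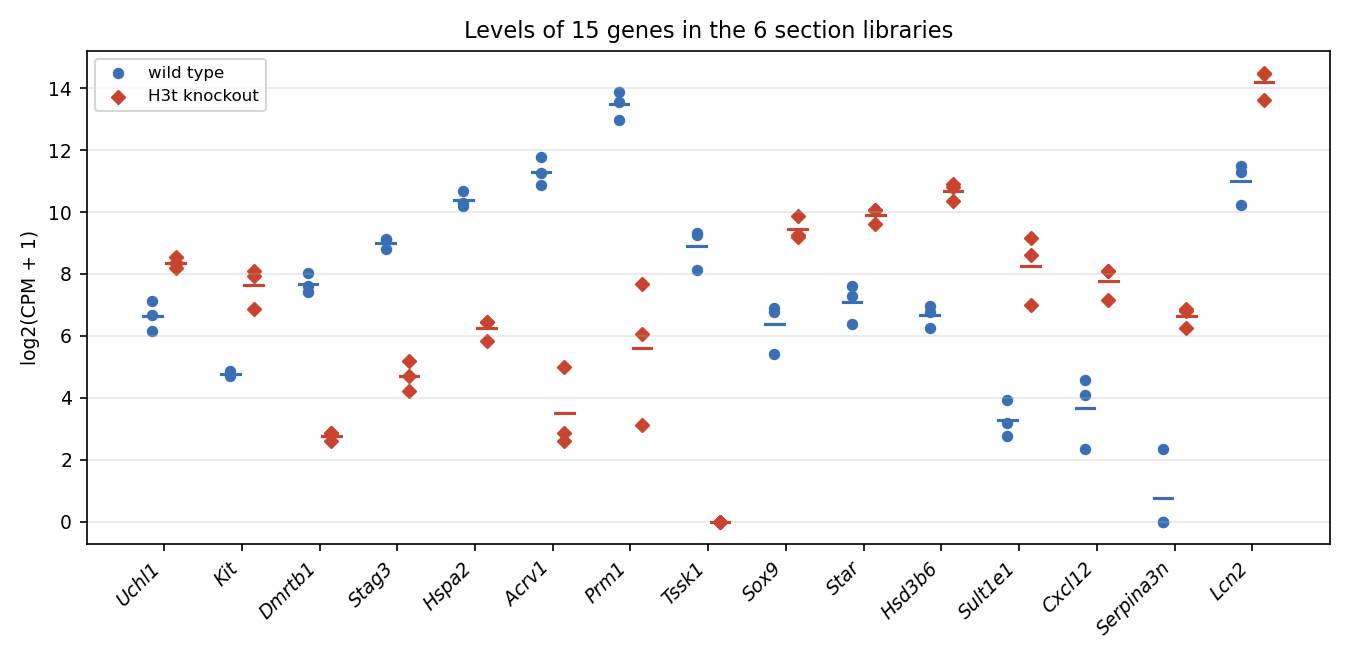
Levels of 15 genes as log2(CPM + 1) in each of 3 wild-type (circles) and 3 H3t-knockout (diamonds) section libraries, with a bar at each group mean. Kit and Uchl1 sit higher in knockouts, the germ cell genes from Dmrtb1 to Tssk1 sit lower with Tssk1 at 0 in all knockouts, and the somatic genes from Sox9 to Lcn2 sit higher.

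Spermatids carry their own forms of many enzymes, and these were compared with the forms used by most other cells. Of 18 pairs, 13 had both members tested, and in 11 of these the testis form was lower and the somatic form higher. Over all genes tested, 36.1% were lower and 27.0% higher. Some testis forms, such as Hspa1l with 365 counts in wild type and 1 in knockouts, passed the filter only through wild-type libraries. Some somatic forms, such as Cycs with 25 and 121, passed only with the help of knockout libraries. Such members were bound to lean this way, so the filter in part fixed the count of 11. Atp1a4, the sodium pump subunit of sperm, had 360 counts in wild type and 1 in knockouts, a ratio of 320 (57.1 to 12690), and its fitted log2 change of -8.25 was -9.96 without knockout replicate 1. Cox6b2, a cytochrome oxidase subunit of testis, read 1827, 1370 and 1709 CPM against 31.5, 7.65 and 52.8 and fell by 6.13 ± 0.47 (adjusted p = 9.25e-11). Cox6b1 read 38.8, 13.4 and 44.4 CPM against 181, 158 and 143 and rose by 2.01 ± 0.36 (adjusted p = 3.60e-05). Lactate dehydrogenase was the exception. Ldhc, the germ cell form, fell by 7.08 ± 0.50 (adjusted p = 4.61e-11; 7.80 without knockout replicate 3). Ldha, the common form, read 487, 716 and 614 CPM against 96.7, 117 and 103 and fell too, by 2.95 ± 0.32 (adjusted p = 1.90e-08). For calcineurin the catalytic pair Ppp3cc and Ppp3ca was not called, at -0.78 and -0.01, and the regulatory Ppp3r2 fell by 6.58 ± 0.48 (adjusted p = 5.61e-11). Pgk1, Gapdh and Eno1 were too sparse to test. With scaling to the Sertoli list Cox6b1 stood at 0.73 with adjusted p = 0.103, and 10 of the 12 somatic forms called higher were no longer called.

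**Figure D4:**
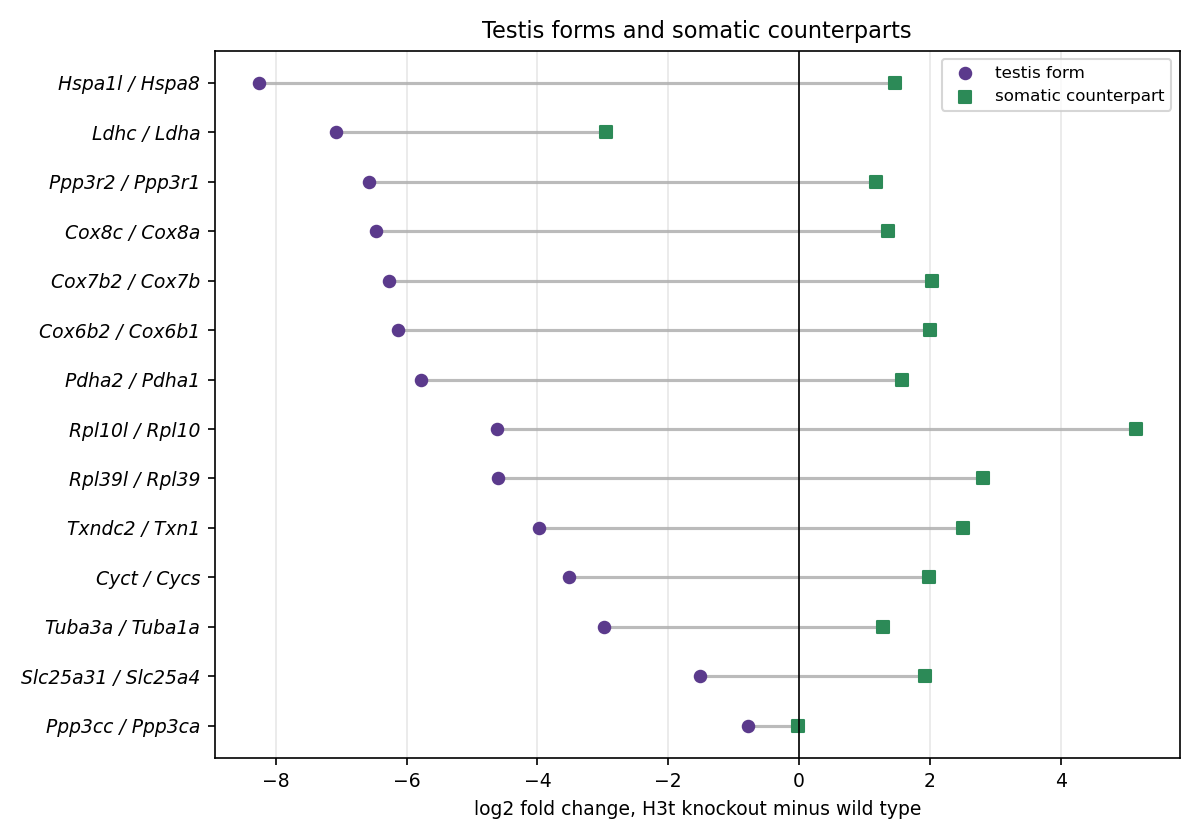
Log2 fold change (H3t knockout minus wild type) of the testis form (circles) and the somatic counterpart (squares) of 12 of the 13 enzyme pairs and of 2 ribosomal protein pairs. Testis forms lie to the left of 0 and counterparts to the right, except Ldha at -2.95 and the uncalled Ppp3cc and Ppp3ca.

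The X chromosome stood apart from the autosomes in this comparison. X-linked genes are silenced in spermatocytes at meiosis and largely stay so in spermatids, and several have autosomal copies that germ cells use in their place. Of 246 X-linked genes tested, 162 were higher (65.9%) and 29 lower (11.8%). On the autosomes 25.7% were higher and 37.0% lower, with single chromosomes from 20.1% higher on chromosome 12 to 28.9% on chromosome 3. The median log2 change was 1.37 on the X chromosome and -0.19 on autosomes. It lay between 1.38 and 1.83 above the median of all genes tested in every setting tried, whereas the count of X-linked genes called higher fell to 27, and that of genes called lower rose to 55, with scaling to the Sertoli list. Leaving out 1 library gave 142 to 170 X-linked genes higher and 27 to 30 lower.

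Ribosomal protein genes with an X-linked original and an autosomal copy were compared within 2 pairs, which were picked after their values were seen. Rpl10, on the X chromosome, read 7.06, 7.65 and 0 CPM in wild type and 219, 298 and 342 in knockouts, and rose by 5.15 ± 0.47 (adjusted p = 9.28e-10). Rpl10l, its copy on chromosome 12, read 348, 534 and 355 CPM in wild type and 12.6, 22.9 and 34.2 in knockouts, and fell by 4.62 ± 0.40 (adjusted p = 5.46e-10). Rpl39 of the X chromosome read 15.9 ± 3.40 (SD, n = 3) CPM in wild type and 153, 191 and 103 in knockouts and rose by 2.81 ± 0.39 (adjusted p = 7.95e-07). Rpl39l, on chromosome 16, read 270, 348 and 206 CPM against 16.8, 15.3 and 12.4 and fell by 4.60 ± 0.39 (adjusted p = 3.63e-10). Neither pair overlapped between genotypes, and the copies share sequence, so reads could have been split between them in counting. Across all 65 ribosomal protein genes tested, 22 were higher, 3 lower and 40 not called, and the 33.8% higher compares with 27.0% over all genes tested.

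Other X-linked genes with large rises were Ndufb11, a respiratory chain subunit (3.39 ± 0.39, adjusted p = 4.02e-08), Hdac6, a tubulin deacetylase (3.02 ± 0.37, adjusted p = 1.15e-07), and Slc25a5, an ADP/ATP carrier (2.43 ± 0.34, adjusted p = 9.44e-07). These were named after their values were seen. The X-linked genes that fell included genes of spermatids. Akap4, the main anchoring protein of the fibrous sheath, read 805, 1448 and 885 CPM against 10.5, 0 and 9.32 and fell by 7.65 ± 0.54 (adjusted p = 5.02e-11), or by 8.27 and 7.04 without knockout replicate 1 and 2. Ctag2 had 120 counts in wild type and none in knockouts, at least 35.6-fold lower. All 3 Y-linked genes tested were higher, among them Ddx3y, an RNA helicase, by 1.74 ± 0.32 (adjusted p = 4.05e-05), a rise that was 0.44 with adjusted p = 0.244 under Sertoli scaling.

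**Figure D5:**
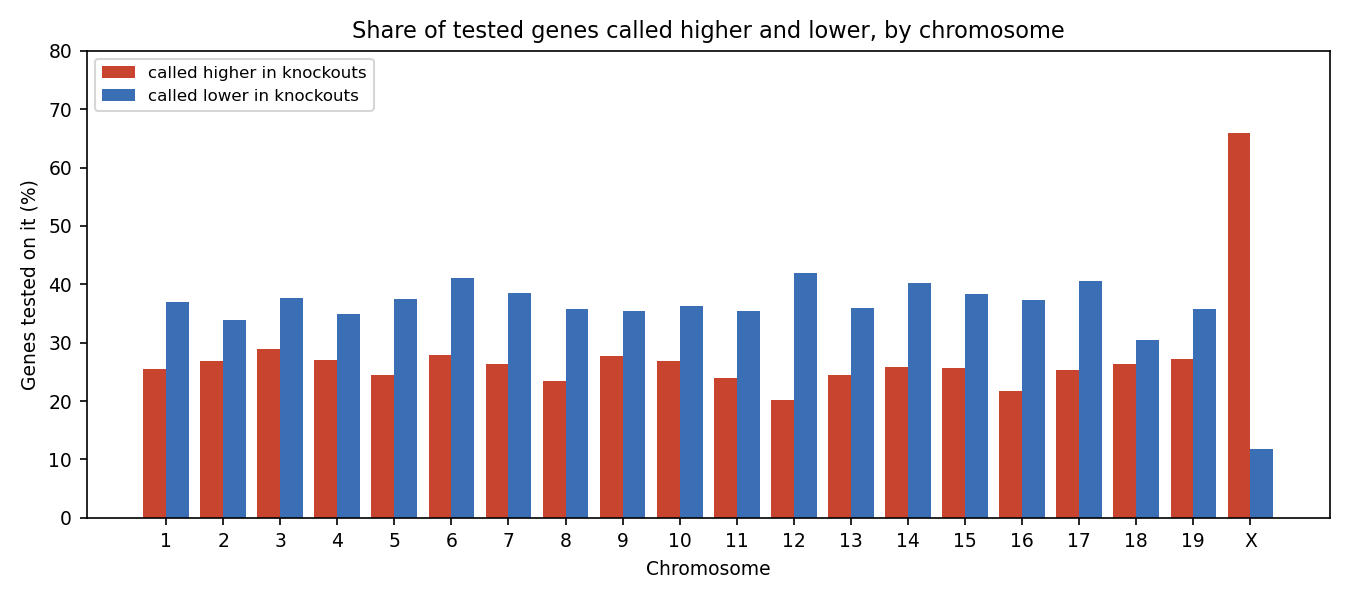
Percent of the tested genes on each autosome and on the X chromosome that were called higher or lower in H3t-knockout sections. On every autosome the share called lower exceeds the share called higher, and on the X chromosome 65.9% were higher and 11.8% lower, which became 27 genes higher and 55 lower with scaling to the Sertoli list.

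Leydig cell genes took 0.709%, 0.355% and 0.688% of wild-type counts and 4.35%, 3.84% and 4.50% of knockout counts. Ptgds and Cyp17a1 made up most of these shares. Their mean CPM was 1839 and 2640 in wild type and 19146 and 11504 in knockouts. Of 21 tested genes of steroid synthesis and Leydig identity, 19 were higher (90.5%, against 27.0% of all genes tested), 1 was lower and 1 was not called, with a median of 2.41. Cholesterol enters the pathway through Star, which read 194, 82.3 and 154 CPM in wild type and 1068, 788 and 1072 in knockouts and rose by 2.41 ± 0.33 (adjusted p = 7.24e-07). Cyp11a1, the side-chain cleavage enzyme, read 14.1, 7.65 and 8.08 CPM against 101, 102 and 165 and rose by 3.14 ± 0.44 (adjusted p = 8.87e-07). Hsd3b6, the form of adult Leydig cells, read 125, 74.6 and 109 CPM against 1776, 1941 and 1308 and rose by 3.63 ± 0.33 (adjusted p = 1.29e-09). All knockout libraries were above all wild-type libraries for these genes.

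The last steps of the pathway differed in size. Cyp17a1, which makes androgen precursors, read 3147, 1496 and 3276 CPM against 12784, 7946 and 13783 and rose by 1.77 ± 0.42 (adjusted p = 0.000822). Hsd17b3, which makes testosterone, read 15.9, 7.65 and 16.2 CPM against 193, 222 and 183 and rose by 3.55 ± 0.38 (adjusted p = 1.24e-08). The difference between these 2 rises was not tested. Under scaling to the Sertoli list Cyp17a1 stood at 0.47 with adjusted p = 0.352, and 12 of the 21 Leydig genes were still higher. Lipe, the hormone-sensitive lipase, was the 1 gene of the list that fell, by 2.57 ± 0.48 (adjusted p = 5.15e-05).

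Of 8 tested identity genes of Leydig cells, 7 were higher, and Gata6, a transcription factor, was not called at 0.04 ± 0.42 (adjusted p = 0.935). Nr5a1, the steroidogenic factor, read 68.8, 38.3 and 60.6 CPM against 498, 413 and 528 and rose by 2.73 ± 0.32 (adjusted p = 6.74e-08). Sult1e1, an oestrogen sulfotransferase, read 14.1, 5.74 and 8.08 CPM against 395, 574 and 127 and rose by 4.79 ± 0.50 (adjusted p = 8.58e-09). Lhcgr, the receptor for luteinizing hormone, rose by 3.35 ± 0.60 (adjusted p = 3.06e-05) on 5 and 64 counts, or by 4.59 without wild-type replicate 1. Ptgds, a prostaglandin synthase, was among the most abundant transcripts of knockout sections at 18530, 17827 and 21080 CPM, from 2078, 1154 and 2287, and rose by 3.01 ± 0.44 (adjusted p = 2.08e-06).

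Genes of cholesterol synthesis and uptake moved with them in part. Of 18 tested, 13 were higher (72.2%, against 27.0% of all genes tested) and none lower, with a median of 2.11. Dhcr7, which makes cholesterol in the last step, read 12.4, 3.83 and 12.1 CPM in wild type and 77.8, 79.0 and 83.9 in knockouts, without overlap, and rose by 2.73 ± 0.45 (adjusted p = 1.07e-05). Msmo1 and Sc5d, further enzymes late in the pathway, rose by 2.42 ± 0.31 and 2.66 ± 0.38. Not all enzymes rose: Sqle, the squalene epoxidase, was not called at 0.03. Under Sertoli scaling 7 of the 18 were higher and 3 lower.

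The median change was 1.39 for Sertoli genes, against 2.41 for Leydig genes, and the difference was not tested. Of 22 tested, 18 were higher (81.8%, against 27.0% of all genes tested) and Cst9, Rhox5, Inhbb and Eppin were not called. With libraries scaled to this list itself, 2 were higher and 2 lower. The list held 0.845%, 0.453% and 0.688% of wild-type counts and 2.08%, 2.11% and 2.17% of knockout counts, so knockout libraries were alike and wild-type libraries spread. Sox9, the factor that sets Sertoli fate, read 118, 42.1 and 109 CPM against 946, 612 and 581 and rose by 2.64 ± 0.35 (adjusted p = 4.42e-07). Defb36 and Cst12, secreted proteins of Sertoli cells, rose by 2.35 ± 0.31 and 1.74 ± 0.31.

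Niche signals and growth factors, not all of which act on spermatogonia, were higher in 8 of 9 cases tested (88.9%, against 27.0% of all genes tested), with a median of 1.98. Cxcl12, a chemokine that keeps stem cells in their niche, read 15.9, 23.0 and 4.04 CPM against 271, 273 and 143 and rose by 3.41 ± 0.41 (adjusted p = 8.92e-08; 4.0 without wild-type replicate 2). Kitl, the ligand of Kit, read 33.5, 15.3 and 20.2 CPM against 185, 250 and 87.0 and rose by 2.47 ± 0.39 (adjusted p = 5.27e-06). Knockout replicate 3 was the lowest knockout for Kitl, Cxcl12, Kit and Sult1e1. Csf1, a growth factor for macrophages, rose by 3.04 ± 0.56 (adjusted p = 5.13e-05) on 5 and 51 counts. Bmp4, Igf1 and Wnt5a, further growth factors, rose by 1.51, 1.80 and 1.98, and none of these 3 rises passed the test under Sertoli scaling. Pdgfa was not called.

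Retinoic acid drives germ cells into differentiation, and 7 of its handling genes were tested. Of these, 3 were higher (42.9%), 1 was lower (14.3%) and 3 were not called, against 27.0% higher and 36.1% lower over all genes tested. Aldh1a1, which makes retinoic acid, read 1280, 773 and 897 CPM in wild type and 6329, 6069 and 4811 in knockouts and rose by 2.15 ± 0.36 (adjusted p = 1.33e-05), a value of 0.85 with adjusted p = 0.0647 under Sertoli scaling. Lrat, which stores retinol as esters, read 138, 68.9 and 166 CPM against 6.31, 5.10 and 28.0 and fell by 3.67 ± 0.49 (adjusted p = 5.22e-07; 4.66 without knockout replicate 3).

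Markers of the other cells in the section were mostly higher. The macrophage list held 0.0683%, 0.0417% and 0.0598% of wild-type counts and 0.408%, 0.182% and 0.246% of knockout counts, and 12 of 13 tested genes were higher (92.3%, against 27.0% of all genes tested). Lyz2, a lysozyme of macrophages, read 38.8, 26.8 and 24.2 CPM against 370, 382 and 314 and rose by 3.12 ± 0.33 (adjusted p = 9.84e-09). Genes of antigen presentation varied between knockout libraries. H2-Eb1, a class II molecule, read 752, 105 and 124 CPM in knockouts, so replicate 1 was far above the other two, and 24.7, 26.8 and 32.3 in wild type. Its log2 change of 3.20 ± 0.74 (adjusted p = 0.00230) was 1.65 without knockout replicate 1, and the call was lost without wild-type replicate 1 or 2, with adjusted p = 0.156 and 0.151. Over the 6 fits that leave out 1 library, 8 to 12 macrophage genes were higher.

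Stromal genes were higher in 10 of 12 cases (83.3%, against 27.0% of all genes tested), with Pdgfra, a receptor of fibroblasts and other mesenchymal cells, at 2.35 ± 0.35 (adjusted p = 2.68e-06). Leaving out 1 library gave 6 to 10. Of 8 peritubular myoid genes tested, 4 were higher (50.0%), 1 lower (12.5%) and 3 not called, against 27.0% higher and 36.1% lower over all genes tested. With scaling to the Sertoli list the stromal median went from 1.33 to 0.03 and the myoid median from 0.85 to -0.46. Acta2, the smooth muscle actin of these cells, was not called at 0.62 ± 0.31 (adjusted p = 0.0874), was called at 0.61 with the replicate block (adjusted p = 0.0321), and was higher with library size alone, at 0.98. Single members of somatic lists went the other way. Aif1 of the macrophage list fell by 3.55 ± 0.49 (adjusted p = 9.72e-07; 2.96 without wild-type replicate 2), Mfap5 of the stromal list by 3.93 ± 0.50 (adjusted p = 2.12e-07; -4.98 and -3.32 without knockout replicate 1 and 2) and Actg2 of the myoid list fell by 4.11 ± 0.55 (adjusted p = 4.60e-07). Of 13 endothelial genes only Ly6c1 could be tested and it was not called, and no lymphoid or mast cell gene had enough counts. The rete testis and epididymis list held 0.00709% ± 0.000954 (SD, n = 3) of wild-type counts and 0.00258% ± 0.000818 (SD, n = 3) of knockout counts, with no overlap. Its 1 tested member, the epithelial adhesion gene Epcam, fell by 2.61 ± 0.48 (adjusted p = 4.73e-05), and its 7 untested members held 46 and 20 counts, with Crisp1 and Krt19 at 0.

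Antioxidant and detoxification genes were higher in 20 of 29 cases (69.0%) and lower in 2 (6.90%), with a median of 1.49, against 27.0% higher and 36.1% lower over all genes tested. Fth1, the ferritin heavy chain that stores iron, read 305, 253 and 246 CPM against 2571, 2530 and 2583 and rose by 2.86 ± 0.33 (adjusted p = 4.78e-08). Gpx1, a glutathione peroxidase, read 61.8, 28.7 and 56.6 CPM against 517, 428 and 469 and rose by 2.91 ± 0.33 (adjusted p = 3.67e-08). Gstm1, a glutathione transferase, reached 16760, 10026 and 11903 CPM in knockouts from 2688, 968 and 1947 and rose by 2.43 ± 0.43 (adjusted p = 3.11e-05). Sod2, the superoxide dismutase of mitochondria, and Prdx4, a peroxiredoxin of the endoplasmic reticulum, were the 2 that fell, Prdx4 by 1.04 ± 0.31 (adjusted p = 0.00543). Leydig and Sertoli lists were higher in the same 3 libraries, and their part in this rise was not tested. Under Sertoli scaling 9 genes were higher and 9 lower, with Gpx1 and Fth1 among those still higher.

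Of 14 heat shock chaperones, 6 were higher (42.9%) and 5 lower (35.7%), against 27.0% higher and 36.1% lower over all genes tested, so the share called lower was near the background. Hspa4l, a chaperone of germ cells, fell by 3.70 ± 0.33 (adjusted p = 7.47e-10) and Hsp90aa1 by 2.17 ± 0.31 (adjusted p = 1.32e-06), and Hsp90ab1, its close relative, rose by 1.5 ± 0.31 (adjusted p = 0.000149), or stood at 0.17 with adjusted p = 0.708 under Sertoli scaling. Of 10 endoplasmic reticulum stress genes, 4 were lower, near that background, and 1, Atf4, was higher, by 1.41 ± 0.38 (adjusted p = 0.00215; 0.08 under Sertoli scaling). Of 7 genes of the p53 list, 5 were higher (71.4%) and 1 was lower (14.3%): Sesn1 read 24.7, 21.0 and 0 CPM against 135, 250 and 183 and rose by 2.98 ± 0.43 (adjusted p = 1.75e-06), while Mdm2, which degrades p53, fell by 2.03 ± 0.37 (adjusted p = 3.86e-05). Leaving out 1 library gave 4 to 5 genes of the p53 list higher, and Bax lost its call without wild-type replicate 1 (adjusted p = 0.0632). The median of this list went from 1.48 to 0.18 with scaling to the Sertoli list. A further 9 members were too sparse to test, among them the cell cycle brake Cdkn1a, with 33 counts in wild type and 38 in knockouts.

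All 6 tested inflammation and interferon genes were higher, against 27.0% of all genes tested, and Lcn2, an iron-carrying protein released in inflammation, was the most abundant transcript in 2 of the 3 knockout libraries. It read 2845, 1190 and 2513 CPM in wild type and 22465, 12584 and 22979 in knockouts and rose by 2.80 ± 0.46 (adjusted p = 1.19e-05). Serpina3n, a protease inhibitor of the acute phase, had 1 count in wild type and 116 in knockouts, a ratio of 130 (22.9 to 5192). Its fitted log2 change of 6.22 was 5.49 and 8.34 without wild-type replicate 1 and 3. Il6 had 1 and 0 counts and Il1b none, so these cytokines were below what the depth can show. H2-D1, a class I molecule of antigen presentation, rose by 2.10 ± 0.36 (adjusted p = 1.62e-05), and under Sertoli scaling Lcn2 and Serpina3n were the 2 still called.

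Sparse genes that a filter over all 12 libraries leaves out gave further examples in both directions. Timp1, an inhibitor of matrix proteases, had no counts in wild type and 46.2, 48.4 and 55.9 CPM in knockouts, at least 22.1-fold higher. Wnt4, a signal of somatic cells of the gonad, had 1 count in wild type and 63 in knockouts, a ratio of 70.8 (12.3 to 2840), and its fitted log2 change of 5.34 was 4.60 and 7.46 without wild-type replicate 1 and 3. Pkia, an inhibitor of protein kinase A, had 3 and 63 counts, a ratio of 23.6 (7.71 to 117). All 3 wild-type counts of Pkia were in replicate 1, and its fitted log2 change of 4.05 was 7.22 without that library. On the other side, Pla2g10, a secreted phospholipase, had 91 counts in wild type and none in knockouts, at least 27.0-fold lower. Usp44, a deubiquitinase, had 105 and 1, a ratio of 93.5 (16.4 to 3726), and its fitted log2 change of -6.52 was -8.23 without knockout replicate 1. Slc26a8, an anion transporter of sperm, read 88.3, 65.1 and 52.5 CPM against 2.10, 2.55 and 3.11. Wfdc18, of the whey acidic protein family, passed both filters with no counts in wild type and 140 in knockouts, at least 52.4-fold higher, and was added after its value was seen, as was Ass1, an enzyme of arginine synthesis, which rose by 4.24 ± 0.38 (adjusted p = 7.34e-10).

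Non-coding transcripts were mostly lower in knockout sections. Of 135 long intergenic non-coding RNAs tested, 113 were lower and 9 higher. Of 97 antisense RNAs 78 were lower and 6 higher, against 36.1% lower and 27.0% higher over all genes. No knockout counts were found for 39 of these intergenic and 23 of these antisense RNAs, against 200 of the 7705 genes tested. Such RNAs passed the filter only through wild-type libraries and were bound to be lower. Shares of counts use tested and untested RNAs alike. Intergenic RNAs held 2.14% to 2.53% of wild-type counts and 0.611% to 0.823% of knockout counts. Antisense RNAs held 1.33% to 1.68% and 0.359% to 0.502%. Rbakdn had 569 counts in wild type and 3 in knockouts, a ratio of 169 (57.5 to 821), and its fitted log2 change of -7.61 was -8.32 without knockout replicate 1. Among those that rose, Neat1, which builds nuclear paraspeckles, read 378, 115 and 347 CPM against 1803, 1657 and 2614 and rose by 2.52 ± 0.38 (adjusted p = 3.63e-06), Meg3 by 2.97 ± 0.36 (adjusted p = 1.30e-07) and Malat1 by 1.87 ± 0.32 (adjusted p = 1.69e-05; 0.56 under Sertoli scaling). These 4 genes were chosen after their values were seen. How strand was treated in counting was not given, so antisense RNAs cannot be separated from overlapping genes.

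Around H3f4, 37 genes of the table lie within 500 kb, and 10 were tested. Of these, 4 were lower, a share near the 36.1% of all genes tested, 1 was higher and 5 were not called. Trim17, whose annotated span overlaps H3f4, read 106, 119 and 125 CPM in wild type and 4.20, 5.10 and 0 in knockouts and fell by 5.40 ± 0.51 (adjusted p = 2.07e-09). Btnl10 rose by 2.26 ± 0.47 (adjusted p = 0.000172), or by 3.17 without wild-type replicate 1, and stood at 1.02 with adjusted p = 0.0599 under Sertoli scaling.

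Promoters were searched for the letters of 2 binding sites, 1 for a factor of spermatids and 1 for a factor of steroid-making cells. The cAMP response element, bound by Crem, was searched as TGACGTCA and the site of Nr5a1 as CAAGGTCA, on both strands of the 250 bases before each start in RefSeq (GRCm38.p6). The element stood in 3.67% of promoters of genes called lower, 2.66% of genes called higher, 3.34% of all tested genes and 1.77% of all 27025 promoters. It stood in 1 of 23 acrosome genes, 0 of 12 chromatin compaction genes and 0 of 19 flagellum genes with a promoter in the table. The Nr5a1 site stood in 1.73% of genes called higher, 1.68% of genes called lower, 1.31% of all tested genes, 1.51% of all promoters and 0 of 11 steroid synthesis genes. Matches lay in genes that changed in either direction: the Nr5a1 site also in Prm2, a protamine, and Septin12, a septin of the sperm tail, which were both lower, and the cAMP element also in H2-Aa, a class II molecule, which was higher. These 4 windows of 120 bases show where a match lay, with the matched letters in capitals: Ccin, of the spermatid perinuclear theca (chr4:43983384-43983503, plus strand, 105 counts in wild type and 1 in knockouts), Spag6l, of the axoneme, Dhcr7, of cholesterol synthesis, and Prm2.
Ccin: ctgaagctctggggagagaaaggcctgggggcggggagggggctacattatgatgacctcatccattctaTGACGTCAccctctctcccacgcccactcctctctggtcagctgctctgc
Spag6l: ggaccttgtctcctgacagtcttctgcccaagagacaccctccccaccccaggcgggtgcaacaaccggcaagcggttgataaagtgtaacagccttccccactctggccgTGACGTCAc
Dhcr7: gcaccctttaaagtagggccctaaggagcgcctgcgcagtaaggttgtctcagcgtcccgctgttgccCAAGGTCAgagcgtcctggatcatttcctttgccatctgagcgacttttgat
Prm2: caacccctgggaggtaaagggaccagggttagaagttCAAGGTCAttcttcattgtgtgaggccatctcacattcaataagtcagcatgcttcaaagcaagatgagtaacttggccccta
The Spag6l window lies at chr16:16829364-16829483 (minus strand), the Dhcr7 window at chr7:143823047-143823166 (plus strand) and the Prm2 window at chr16:10792236-10792355 (minus strand), and their genes changed by -6.23, 2.73 and -7.06. Without knockout replicate 3 the value of Prm2 was -8.38, and that of Ccin, -6.53, was -8.33, or -5.76 without wild-type replicate 2. Without knockout replicate 1 and 3 the value of Spag6l was -5.55 and -7.82. A match of letters is a description of the window and shows no binding.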

How the data were processed

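Photo-isolation chemistry libraries of entire testis sections were compared, 3 per genotype. The values are counts per gene, deposited by the authors as whole numbers in 1 table. The tools named per the submitters' processing notes are featureCounts, HISAT2, UMI-tools and Trim Galore, and the genome is GRCm38. Settings, strand included, are not given there.

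Genes with at least 10 counts in at least 3 of the 6 libraries were tested with edgeR 4.0.16 (R 4.3.3, limma 3.58.1), using TMM factors, a robust quasi-likelihood test on genotype and Benjamini-Hochberg adjustment over all genes tested at 0.05. Changes over 2-fold were tested with edgeR's treat test. The SE is the log2 change divided by the square root of F. CPM were computed from whole library totals, with Python 3.11.15, pandas 2.3.3 and scipy 1.17.1. Ratios of pooled counts carry exact 95% intervals, which cover counting error only, and a group without counts was set to 3 counts. The test was checked on simulated counts with known changes, where it recovered 19.4%, 85.1% and 100.0% of log2 changes of 1, 2 and 4, with 4 false calls among 7747 genes. Only 67, 67 and 66 genes were changed there, up and down in equal number. The check therefore does not cover errors of scaling where most genes differ, as in these sections.

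Same-numbered libraries deviated together (correlations of 0.197, 0.141 and 0.17), and 3 of 3 such pairs share a cell barcode. The numbers were therefore taken to pair libraries, but the main test, on genotype alone, has no term for this pairing. A replicate block, run as an alternative, includes it and gave 2278 genes higher and 2952 lower, against 2081 and 2782. Alternatives were library size alone, upper-quartile and RLE scaling, scaling to the Sertoli list, DESeq2 1.42.0, no filter, a filter or fit over all 12 libraries, a replicate block, and leaving out each library. The comparison and its gene lists were chosen with earlier results of these data known. Named genes were the 10 most abundant called genes per direction over 2-fold without overlap, the 10 with the smallest p per direction that a filter over 12 libraries leaves out, up to 4 per list, the enzyme pairs and H3f4. A further 46 were added after their values were seen. RefSeq promoters (GRCm38.p6) were matched by symbol. A few list members are not reported here by name, and 1 enzyme pair is left out of the plot of pairs, though both stay in the counts.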

Additional observations from a re-analysis of the deposited data

How the results depend on the processing

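The number of genes higher by over 2-fold was 999, and 1575 with library size alone, 1704 with upper-quartile scaling and 338 with DESeq2. With scaling to the Sertoli list, 360 genes were higher, 4746 lower, 104 higher by over 2-fold and 3595 lower by over 2-fold; of the 2081 genes called higher 360 were still called, and all 2782 called lower were. Without a count filter, 5280 genes were lower and 4125 lower by over 2-fold. Leaving out 1 library gave 1820 to 2060 genes higher, 2599 to 2709 lower, 833 to 1120 higher and 1945 to 2125 lower by over 2-fold. With the replicate block, 2278 genes were higher and 2952 lower, among them all genes called without it; it added Rrm1, Ppp3cc and Acta2 to the genes named and removed none. Values changed sign for Ppp3ca, which was not called at -0.01 and stood at 0.37 with library size alone, 0.46 with upper-quartile scaling, 0.04 without a filter, 0.15 with the filter and 0.14 with the fit over 12 libraries, 0.00 with the replicate block and -0.09 to 0.10 without single libraries. Ly6c1 stood at 0.01 with upper-quartile scaling, and Ccne1, not called at -0.52, ranged from -0.72 to 0.03 without single libraries. Under Sertoli scaling the signs changed for Uchl1 (-0.01), Etv5 (-0.30), Sall4 (-0.74), Mcm6 (-0.88), Ppp3r1 (-0.17), Sod1 (-0.04) and Acta2 (-0.69). The cause of these changes was not tested, apart from the fewer or more genes and libraries that a filter or an omission leaves. Of 217 named genes called, omitting single libraries shifted 69 by more than 1.5-fold in a fit that kept the call, and 6 lost the call in some fit; Acta2, not called, gained one. Genes below about 10 counts in 3 libraries could not be tested at this depth.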
